A study of Mus musculus with 12 samples.

Results

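The 7 loci described here are those of Snai1, Snai2, Zeb1, Zeb2, Twist1, Twist2 and Prrx1, transcription factor genes that are used to mark mesenchymal cells. Each locus was taken as the gene body in GENCODE M21 on GRCm38 with 20 kb on either side, and every merged peak interval that touched it was counted, which gave 124 of the 273256 intervals of the series. The loci hold unequal shares of them, with 34 intervals at Zeb2, 31 at Zeb1, 22 at Prrx1, 15 at Twist2, 12 at Snai1 and 5 each at Snai2 and Twist1. Of the 124, 14 lie within 1000 bp of an annotated start of the gene and are called promoter intervals, 64 lie in introns, 6 in exons, 15 upstream and 25 downstream. Distances of member intervals run from the gene start to the interval's midpoint, also for those downstream of the gene.

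Open chromatin was mapped with Omni-ATAC-seq, in which the Tn5 transposase cuts and tags exposed DNA, in 12 libraries made from 50000 mouse cells each. The cells were, per the labels, strain 129 embryonic fibroblasts (MEFs) from E12.5 embryos at passage 2, and they formed 4 groups of 3 libraries. In the MEF control group they received a non-targeting control sgRNA, and in the MEF KO group a sgRNA against the zinc finger gene Zfp266, and both stayed in MEF medium. In the reprogramming control and reprogramming KO groups the same guides were followed by 72 h of doxycycline at 300 ng/ml with vitamin C at 10 µg/ml, which switched on Oct4, Sox2, Klf4 and c-Myc (OSKM). The study's methods give the base of this medium as ESC medium, which has LIF and lacks the FGF2 and heparin of MEF medium. The medium thus differs along with the factors between MEF and reprogramming groups, and the 2 cannot be told apart. All cells were collected 96 h after transduction. Per the study's methods, the engineered cells of all 4 groups derive from an ES cell line carrying Cas9, a Nanog reporter and the inducible factors. The embryos were chimeras, made by aggregating these ES cells with morulae from B6CBAF1 females, so the MEF groups can hold host cells. MEFs were sorted as live single cells, and no marker for the engineered cells is named for that sort. For reprogramming, the engineered MEFs were diluted among wild-type 129 MEFs and then sorted for the mOrange marker of factor expression, so a reprogramming group is factor-expressing cells and not the whole culture. KO here stands for a guide in a population and not for a clone, and peak lists do not show the edit.

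Snail proteins (SNAI1 and SNAI2), ZEB1 and ZEB2 are zinc finger repressors that bind E-box sequences and silence epithelial genes such as Cdh1. TWIST1 and TWIST2 are basic helix-loop-helix factors, and PRRX1 is a homeodomain factor of limb and craniofacial mesenchyme. They drive epithelial-to-mesenchymal transition, and fibroblasts that are turned into pluripotent cells pass through the reverse change early on.

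The values are those of the deposited peak lists. For each peak the authors' caller gave a fold, the pileup at the peak over the local background, and a q-value. The 3 libraries of a group were merged before peaks were called, so each group has 1 value per interval, no error can be attached to it, and no test was possible on the comparisons of peaks. Peaks numbered between 161687 and 170135 per group and covered between 139.96 and 145.97 Mb. An interval was called closed when a peak was lost or when its fold fell to 66.7% or less, and opened when a peak was gained or its fold rose at least 1.5-fold. Fold ratios were taken relative to the median over all intervals with a peak in both groups, which was -0.22 and -0.21 on the log2 scale for the reprogramming comparisons with control and Zfp266 guide, and -0.03 and -0.02 for KO against control in MEFs and in reprogramming. A weak peak can drop out of a list by missing the threshold, and a fold is not read depth. The sequencing depth of the libraries is not given in these files.

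Promoters of marker genes were read as a check of the labels. All 6 fibroblast markers (Thy1, Col1a1, Col1a2, Pdgfrb, Pdgfra and Cdh11) had a promoter peak in all 4 groups, against 71.3% of protein-coding genes, which does not tell the groups apart. Of 7 pluripotency genes, 3 were opened with both guides, against 8.53% and 8.21% of all protein-coding promoters. Nanog had no promoter peak in MEFs and folds of 2.66 and 2.40 in reprogramming control and KO, and Zfp42, another gene of naive pluripotent cells, had none in MEF control, 1.81 in MEF KO, and 8.76 and 8.95 in reprogramming. Pou5f1 went from 2.23 in MEF control to 3.03 in reprogramming control and was called only with the centring, as was Tdgf1 (3.38 to 4.51), with the control guide alone. Sall4 (2.59 to 2.62), Fbxo15 (5.56 to 4.75) and Esrrb (4.36 to 2.74) had peaks in all 4 groups and were not called, except that Esrrb was closed with the control guide without the centring. Promoter peaks do not show that a gene is used, since Epcam and Krt18 of epithelium, Pecam1 of endothelium, and Tubb3 and Sox10 of nerve and crest had them in all 4 groups too. Of the other marker genes, Cd68 of macrophages fell from 4.90 to 1.81 with the control guide, Cdh5 of endothelium had a peak only in MEFs, and Ptprc of blood only in reprogramming, at 4.14 and 4.34. The part of such cells in the values below was not tested.

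The sequences of 7 distal intervals that differed strongly between MEFs and reprogramming are shown first, as examples of the intervals described below. They were chosen after their values were seen, and no count over the loci rests on them. Each is 300 bases of the plus strand of GRCm38.p6 (the C57BL/6J reference, not the strain of these cells), centred on the narrow block that the authors' caller placed inside the strongest peak. Capitals mark matches, on either strand, to 7 short motifs: AP-1 (TGACTCA), TEAD (GGAATG), RUNX (TGTGGT), KLF (GGGNGTGG), OCT (ATGCAAAT), SOX (CATTGT) and the E-box that Snail and ZEB proteins bind (CAGGTG). A match is a description of letters and not a binding site. No sequence is shown for Zeb1. The first 3 windows had a peak only in reprogramming, with both guides:
Zeb2, 18.2 kb upstream, chr2:45135473-45135772: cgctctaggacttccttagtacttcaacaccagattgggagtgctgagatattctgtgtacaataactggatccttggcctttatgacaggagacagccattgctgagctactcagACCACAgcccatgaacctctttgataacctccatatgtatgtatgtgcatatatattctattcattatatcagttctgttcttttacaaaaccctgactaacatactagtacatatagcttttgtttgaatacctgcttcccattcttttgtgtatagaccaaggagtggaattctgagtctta
Snai2, 20.1 kb upstream, chr16:14685583-14685882: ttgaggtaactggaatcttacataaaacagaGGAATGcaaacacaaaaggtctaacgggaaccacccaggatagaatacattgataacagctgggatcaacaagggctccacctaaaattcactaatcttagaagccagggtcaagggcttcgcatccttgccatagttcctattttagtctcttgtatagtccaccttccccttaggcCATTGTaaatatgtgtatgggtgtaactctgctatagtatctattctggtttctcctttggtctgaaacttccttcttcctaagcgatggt
Twist1, 11.7 kb upstream, chr12:33945774-33946073: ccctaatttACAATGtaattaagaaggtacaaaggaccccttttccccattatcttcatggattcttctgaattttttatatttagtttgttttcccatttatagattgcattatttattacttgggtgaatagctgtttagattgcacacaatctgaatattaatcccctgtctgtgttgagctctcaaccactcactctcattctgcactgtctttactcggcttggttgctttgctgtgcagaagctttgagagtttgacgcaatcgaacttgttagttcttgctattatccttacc

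The next window had a peak in all 4 groups that was stronger in reprogramming:
Prrx1, 13.6 kb upstream, chr1:163327551-163327850: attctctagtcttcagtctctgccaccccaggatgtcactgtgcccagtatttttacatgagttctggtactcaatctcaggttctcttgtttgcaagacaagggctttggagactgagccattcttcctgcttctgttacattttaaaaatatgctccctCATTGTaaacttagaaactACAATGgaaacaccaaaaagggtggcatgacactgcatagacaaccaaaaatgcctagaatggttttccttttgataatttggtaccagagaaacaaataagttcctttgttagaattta

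The last 3 windows were open in MEFs, and of these the intron of Zeb2 at 97.7 kb kept a weaker peak in reprogramming while the other 2 had none:
Zeb2, 9.0 kb upstream, chr2:45126339-45126638: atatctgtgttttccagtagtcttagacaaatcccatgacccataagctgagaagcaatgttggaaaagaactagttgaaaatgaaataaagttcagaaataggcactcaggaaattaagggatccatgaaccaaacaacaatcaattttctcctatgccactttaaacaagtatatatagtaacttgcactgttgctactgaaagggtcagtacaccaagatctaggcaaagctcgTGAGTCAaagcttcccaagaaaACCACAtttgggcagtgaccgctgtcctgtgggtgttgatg
Zeb2, 97.7 kb into the gene, chr2:45019555-45019854: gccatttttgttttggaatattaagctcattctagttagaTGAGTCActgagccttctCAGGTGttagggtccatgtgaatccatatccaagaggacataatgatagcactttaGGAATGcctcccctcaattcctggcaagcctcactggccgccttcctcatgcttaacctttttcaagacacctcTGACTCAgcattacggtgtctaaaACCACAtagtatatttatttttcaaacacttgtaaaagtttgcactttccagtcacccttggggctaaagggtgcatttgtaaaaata
Prrx1, 61.0 kb into the gene, chr1:163252619-163252918: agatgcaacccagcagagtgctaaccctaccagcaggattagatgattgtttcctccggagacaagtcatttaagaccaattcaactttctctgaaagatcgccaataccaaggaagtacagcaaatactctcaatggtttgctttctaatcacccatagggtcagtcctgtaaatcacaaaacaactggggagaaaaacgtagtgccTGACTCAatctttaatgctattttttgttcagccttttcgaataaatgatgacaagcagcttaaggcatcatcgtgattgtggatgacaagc

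The windows open in MEFs held 4 AP-1 matches, of which 2 lay in the Zeb2 intron, and the 4 windows that were higher in reprogramming held none. These printed windows do not stand for the rest, since 7 of the 39 member intervals with a peak in MEFs only held AP-1, or 17.9%, against 26.7% of all such intervals. The stronger MEF-only intervals of Prrx1 at 82.2 kb and 74.3 kb, and the MEF-only interval of Zeb1 with the highest fold, at 148.9 kb, held none. SOX matches stood in the Snai2 window (1), the Twist1 window (1) and the Prrx1 upstream window (2), and in none of the 3 windows open in MEFs. Over the member intervals, SOX stood in 8 of 21 reprogramming-only and 6 of 39 MEF-only windows, so the printed contrast is starker than that of the loci. The strongest of the printed intervals, upstream of Zeb2, held neither AP-1 nor SOX and had 1 RUNX match. The Snai2 window was marked as repeat over 100% of its bases, against 11% for the Zeb2 and 6.3% for the Twist1 window, so reads there can come from other copies.

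Each of the 7 genes had a promoter peak in all 4 groups, against 71.3% of protein-coding genes. Snai1, an early trigger of the mesenchymal transition, had a fold at its own start of 3.76 with the control guide and 3.70 with the Zfp266 guide in MEFs, and 3.82 and 3.67 in reprogramming. Snai2, a factor of neural crest and fibroblasts, had 4.47 and 4.69 in MEFs and 5.07 and 5.69 in reprogramming, the highest values of the 7 starts in each group. Neither Snail gene start was called closed or opened after 72 h of OSKM.

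From here on, sets of 4 values follow the order MEF control, MEF KO, reprogramming control, reprogramming KO, and pairs are the control and then the Zfp266 guide unless a single group or guide is named. Zeb1 had 3.59, 3.78, 3.18 and 3.03 at its start. Its start interval also covers those of the predicted genes Gm10125 and Gm2238, so the peak is not that of Zeb1 alone. The start of Zeb2 had 2.70, 2.88, 3.10 and 2.82. Relative to the median interval, the change from MEF control to reprogramming control was 0.05 for Zeb1 and 0.42 for Zeb2 on the log2 scale.

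Twist1 had 3.70 and 3.55 in MEF control and KO, and 2.93 and 2.82 in reprogramming control and KO, a change of -0.12 on the centred log2 scale with the control guide. Twist2 had 2.91, 2.83, 2.55 and 2.49, in an interval that also covers a start of the predicted gene Gm29100, and Prrx1 had the weakest start of the 7 with 2.05, 2.07, 2.24 and 2.24. No start interval was called closed or opened in any of the 4 comparisons, centred or not. Over the promoters of all protein-coding genes with a peak in either group (17074 with the control guide), 10.4% were closed and 8.53% opened in reprogramming with the control guide, 11.3% and 8.21% with the Zfp266 guide, 0.69% and 0.592% in MEF KO against control, and 1.17% and 0.876% in reprogramming KO against control, so 0 of 7 is near the background. Snai2 was first and Prrx1 last in every group, and the interval lengths ran from 1944 bp at Snai1 to 5309 bp at Prrx1.

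**Figure D1:**
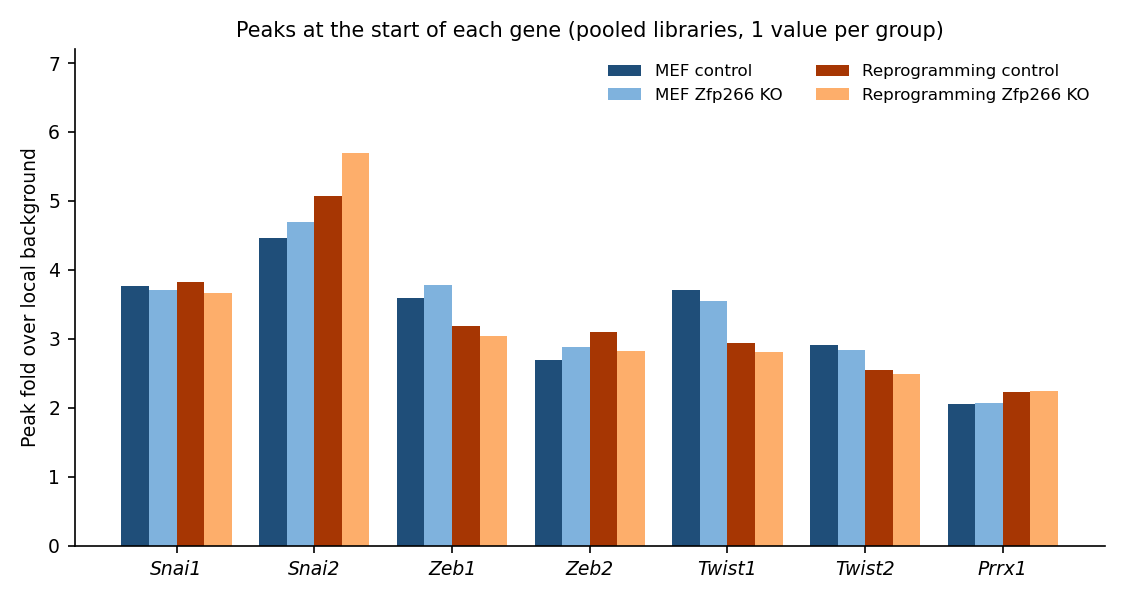
Fold of the peak over the start of each gene (vertical axis, pileup over local background) in MEF control, MEF KO, reprogramming control and reprogramming KO. Bars are single values from pooled libraries and carry no error. Snai2 is highest in every group, from 4.47 to 5.69, and Prrx1 lowest, from 2.05 to 2.24.

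No RefSeq promoter sequence was at hand for Snai2, and Zeb1 was left out. For the other 5 of the 7 members, RefSeq promoter sequences on GRCm38.p6 were read, 250 bases before to 50 after the start. 2 of them are given because they differ in base composition while neither was called changed, with the E-box in capitals and each read along its gene:
Snai1, chr2:167537945-167538244, plus strand: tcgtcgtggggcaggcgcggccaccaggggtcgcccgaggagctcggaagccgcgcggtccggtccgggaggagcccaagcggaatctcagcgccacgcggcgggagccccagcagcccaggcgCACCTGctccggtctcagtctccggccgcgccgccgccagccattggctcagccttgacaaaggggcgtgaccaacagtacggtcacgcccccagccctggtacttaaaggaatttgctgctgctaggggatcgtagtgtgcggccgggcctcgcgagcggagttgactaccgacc
Prrx1, chr1:163313601-163313900, minus strand: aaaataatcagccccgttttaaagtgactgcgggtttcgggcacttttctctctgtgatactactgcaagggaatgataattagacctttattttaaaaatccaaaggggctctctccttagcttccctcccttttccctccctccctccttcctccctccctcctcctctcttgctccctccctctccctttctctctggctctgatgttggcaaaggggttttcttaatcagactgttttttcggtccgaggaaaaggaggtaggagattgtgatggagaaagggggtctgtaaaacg

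The Snai1 promoter held 34 CpG dinucleotides and was 70% G and C, while that of Prrx1 held 6 and was 47.7%. The median over 32851 RefSeq promoters was 7 CpG. Twist1 and Twist2 were CpG-rich as well, with 27 and 25. The E-box of Snai1 was the only match to CAGGTG among the promoters printed or read for Snai1, Zeb2, Twist1, Twist2 and Prrx1, and 20.2% of all promoters held 1 or more.

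Calls were counted over all member intervals. From MEF control to reprogramming control, 53 of 118 member intervals with a peak in either group were closed, or 44.9%, against 38.8% of all intervals, and 39 were opened, or 33.1%, against 40.8%. With the Zfp266 guide 51 of 113 were closed, against 39.2% of all, and 37 were opened, against 40.0%. Among promoter intervals 2 of 13 were closed and 1 opened with the control guide, against 18.3% and 22.1% of intervals within 1000 bp of a protein-coding start. Among distal intervals 51 of 105 were closed and 38 opened, or 48.6% and 36.2%, against 41.1% and 42.9% of all other intervals. Without the centring, 56 were closed and 35 opened with the control guide, or 47.5% and 29.7%, against 41.9% and 39.1% of all intervals. The members' shares were not tested against those of all intervals, and nothing particular to these loci is read from them.

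Most closing was loss of the peak, at 51 of the 53, or 43.2% of the intervals tested, against 34.6% of all. The lost peaks had a median fold of 2.33 in MEF control with a highest value of 5.34. Opening was split between 24 gained peaks, 20.3% of the intervals tested against 36.2% of all, and 15 that were stronger, 12.7% against 4.53%. Of 107 intervals tested with both guides, 42 were closed in both, against 36.9% of all intervals, 35 were opened in both, against 37.3%, and 1 was called in opposite directions, against 0.244%. A peak in both MEF groups and in no reprogramming group was found at 39 intervals, or 31.5%, against 27.5% of all. The reverse was found at 21, or 16.9%, against 27.4%, and 37 intervals, or 29.8%, had a peak in all 4 groups, against 24.7%.

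Length under peaks was summed as well. At the 7 loci it was 115.3 kb in MEF control and 67.5 kb in reprogramming control, or 58.5%, with 94 and 67 intervals that had a peak. With the Zfp266 guide it was 110.8 kb and 64.7 kb, or 58.4%. Over the whole genome the reprogramming peaks covered 101% of the length of the MEF peaks with the control guide and 95.9% with the Zfp266 guide. The median fold of the intervals with a peak was 2.47 in MEF control and 2.85 in reprogramming control, with fewer bases called open.

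Zeb1, Zeb2 and Prrx1, the long genes of the set, had the largest falls in kb, though not in every case relative to their MEF length. Length under peaks was 28.8 kb at Zeb1 in MEF control and 9.47 kb in reprogramming control, 28.0 and 12.1 kb at Zeb2, and 25.4 and 11.2 kb at Prrx1. Twist2 had 15.9 and 11.3 kb, and Snai2 3.25 and 2.56 kb. At Snai1 and Twist1 it went the other way, from 7.82 to 12.3 kb and from 6.19 to 8.51 kb. The same directions held with the Zfp266 guide at all 7 loci, with 4.80 and 2.05 kb at Snai2 and 8.56 and 10.9 kb at Snai1.

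**Figure D2:**
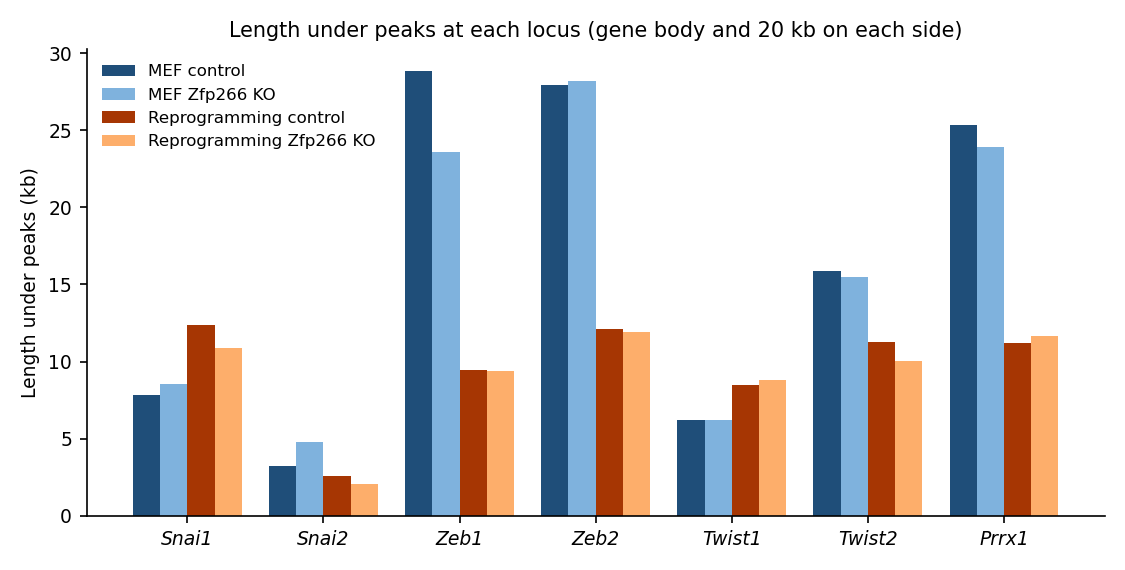
Length under peaks (vertical axis, kb) at each locus, in MEF control, MEF KO, reprogramming control and reprogramming KO, from pooled libraries with 1 value per group. It is lower in reprogramming at Zeb1, Zeb2, Prrx1, Twist2 and Snai2 and higher at Snai1 and Twist1, as in Zeb1 with 28.8 kb in MEF control and 9.47 kb in reprogramming control.

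The Snail genes lie in short loci. At Snai1, 8 of 12 intervals had a peak in all 4 groups, or 66.7%, against 24.7% of all intervals. With the control guide 2 of 12 were closed and 3 opened, or 16.7% and 25.0%, against 38.8% and 40.8%. The counts were the same with the Zfp266 guide, against 39.2% and 40.0%. The strongest lay 15.5 kb downstream at the start of the predicted gene Gm11476 and had folds of 5.03, 4.46, 4.18 and 3.85. Intervals 9.9 kb and 5.8 kb upstream had 3.83 and 3.76 in MEF control and 3.74 and 2.83 in reprogramming control. A peak 8.9 kb downstream, at 3.31 and 2.95 in the MEF groups, was absent in both reprogramming groups.

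New at Snai1 in reprogramming was a peak 8.2 kb upstream, with 2.77 with the control guide and 3.37 with the Zfp266 guide, and a weak one in an intron at 1.97 and 1.85. An interval 24.4 kb from the start, at 2.04 and 1.91 in MEFs, had 3.06 and 2.79 in reprogramming and was called opened only with the centring. At Snai2 the peak 20.1 kb upstream, printed above and reaching only partly into the locus, had no MEF peak and folds of 6.11 and 5.41. The peaks 4.3 kb upstream and 6.9 kb downstream of the Snai2 start, with 1.96 and 2.51 in MEF control, were lost with both guides. A peak 16.9 kb downstream of that start was in MEF KO only, at 2.13. At Snai2, 2 of 4 intervals were closed and 1 opened with the control guide, against 38.8% and 40.8% of all intervals. With the Zfp266 guide these were 3 of 5 and 1, against 39.2% and 40.0%, and such small counts are near the background.

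At Zeb1, 17 of 30 intervals were closed and 11 opened with the control guide, or 56.7% and 36.7%, against 38.8% and 40.8% of all intervals. With the Zfp266 guide 14 of 26 were closed and 9 opened, against 39.2% and 40.0%. ZEB1 keeps cells mesenchymal in part through mutual repression with the miR-200 family. Its strongest MEF peaks were intronic. The interval 148.9 kb into the gene had 4.66 and 5.35 in MEF control and KO and no peak in reprogramming. The interval at 28.4 kb had 4.49 and 5.49, no peak in reprogramming control and 2.12 in reprogramming KO. An interval at 95.0 kb, at 3.88 and 3.97, was also lost.

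Other Zeb1 intervals went up. A peak 5.0 kb upstream had 4.07 and 3.98 in the reprogramming groups and none in MEFs, and it lay between the MEF-only peak at 7.0 kb upstream (3.42 and 3.12) and the start. In introns, the interval at 103.6 kb went from 3.07 and 2.95 to 4.65 and 4.37, and a new peak at 99.0 kb had 3.11 and 2.92. The interval at 21.6 kb, which also covers a start of Gm22709, had 1.82 in MEF control, no peak in MEF KO, and 3.62 and 3.84 in reprogramming. An alternative start at 12.3 kb had 3.54, 3.22, 2.04 and 1.93, and was called closed only without the centring.

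Zeb2, which acts in neural crest and mesoderm, had strong gains and losses side by side. The upstream interval at 18.2 kb had the highest fold of all 124, 8.29 in reprogramming control and 8.21 in reprogramming KO, with no peak in either MEF group. The interval 9.0 kb upstream had 5.34 and 5.19 in MEFs and no peak in reprogramming, and that at 12.9 kb upstream had 2.51 and 2.47 in MEFs and none later. None of these 3 upstream intervals of Zeb2 had a peak in both MEFs and reprogramming.

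Inside Zeb2, an interval in an exon at 12.7 kb was open only in reprogramming, at 5.30 and 4.77. The intron at 97.7 kb, whose window held 2 AP-1 matches, went from 5.23 and 4.83 to 2.27 and 2.10. Around an internal annotated start, 2 neighbouring intervals were exchanged: that at 93.5 kb, which also covers the start of the microRNA gene Mir5129, had 2.37 and 2.37 in MEFs only, and that at 92.8 kb had 3.52 and 3.35 in reprogramming only. The other promoter intervals of Zeb2 were not called with both guides. Those at 7.4 kb (2.86, 2.88, 2.77 and 2.62) and 4.1 kb (2.14, 2.41, 2.07 and 1.68) had a peak in all 4 groups and also cover starts of the antisense gene Zeb2os, and that at 62.7 kb had a peak in MEF KO only, at 1.77.

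Beyond the gene, the Zeb2 interval 148.0 kb from the start had 4.35 and 4.00 in MEFs, no peak in reprogramming control and 2.07 in reprogramming KO. An interval in an exon at 132.0 kb had 2.05 in MEF control, no peak in MEF KO, and 4.22 and 3.69 in reprogramming. Also downstream, a peak 140.0 kb from the start had 3.44 and 3.53 in MEFs and none later, and one at 138.0 kb had 3.00 and 2.59 in reprogramming only. In all, 16 of 32 Zeb2 intervals were closed and 11 opened with the control guide, or 50.0% and 34.4%, against 38.8% and 40.8% of all intervals. With the Zfp266 guide these were 17 of 31 and 10, against 39.2% and 40.0%.

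**Figure D3:**
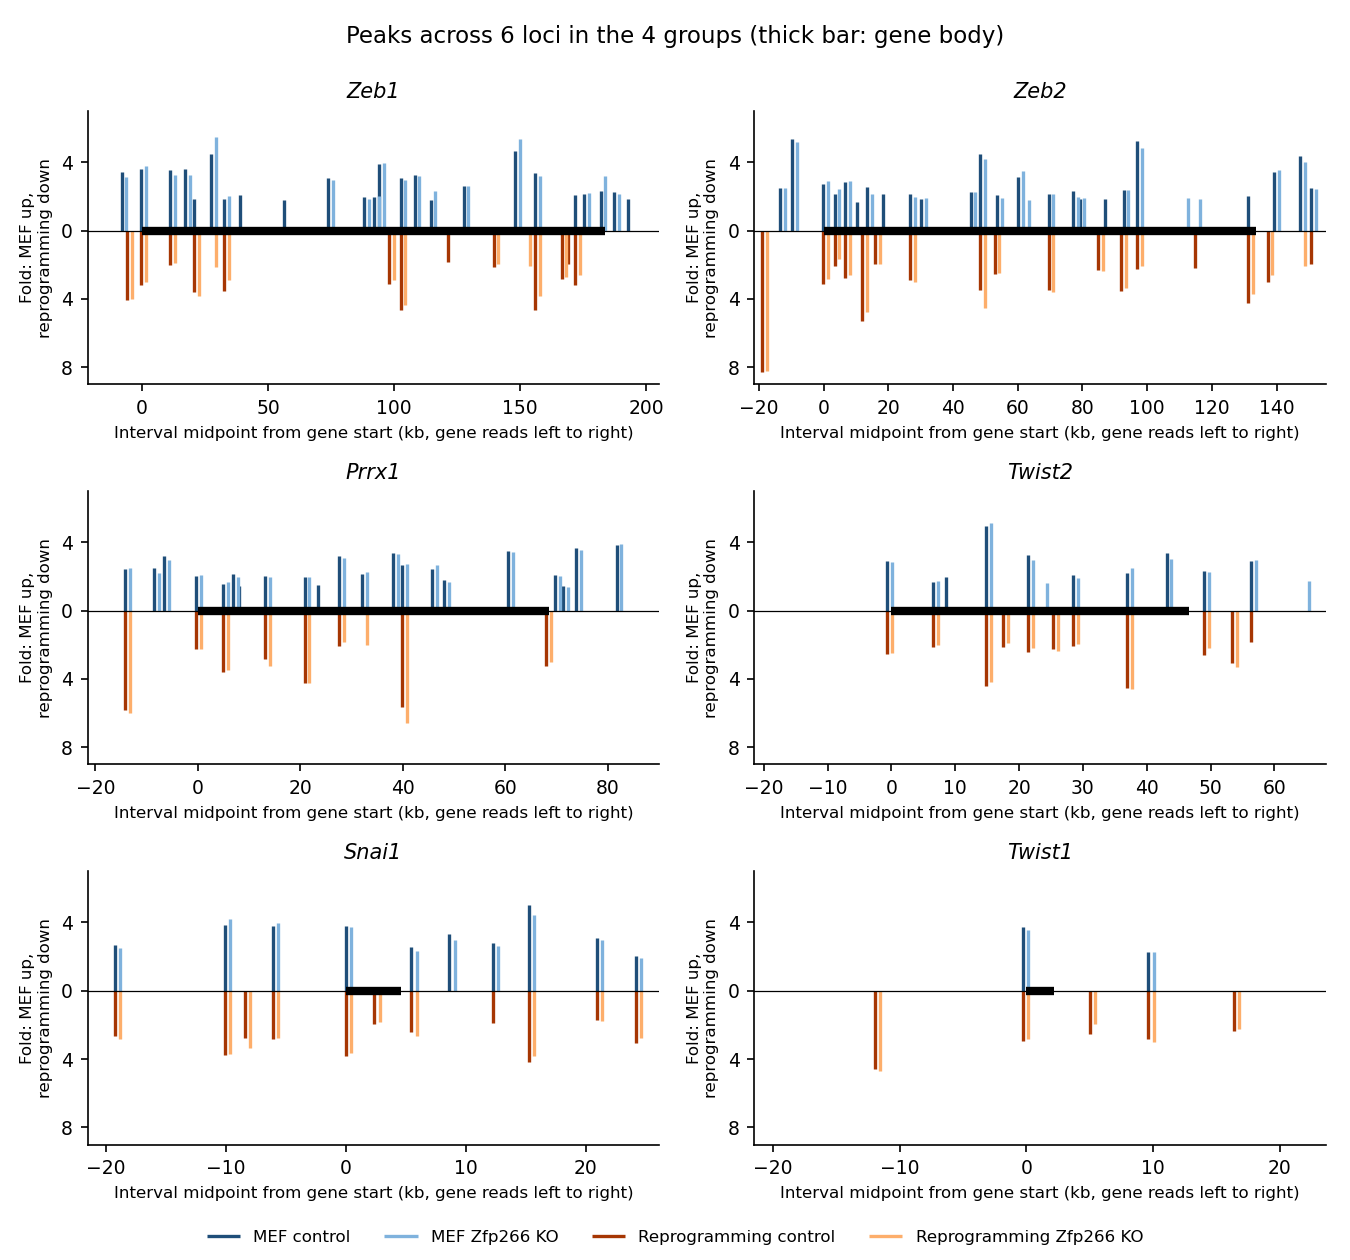
Peaks at 6 loci. The horizontal axis is the distance of the interval's midpoint from the gene start in kb, read along the gene, with the lines of the 2 guides set slightly apart. The vertical axis is the fold, drawn upwards for MEFs and downwards for reprogramming. Thick bars mark the gene bodies. The start peaks appear on both sides, while the Zeb2 peak 18.2 kb upstream (8.29) appears only below and the one 9.0 kb upstream (5.34) only above.

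Of 5 Twist1 intervals 0 were closed with either guide, against 38.8% and 39.2% of all intervals, and 3 were opened with the control guide and 4 with the Zfp266 guide, against 40.8% and 40.0%. Its start and a downstream interval at 9.8 kb, with 2.26, 2.29, 2.80 and 3.03, had a peak in all 4 groups, and the latter was called opened with the Zfp266 guide alone and only with the centring. The other 3 intervals were open in reprogramming only, at 4.57 and 4.71 for the one 11.7 kb upstream, 2.52 and 1.96 at 5.2 kb downstream, and 2.35 and 2.26 at 16.6 kb downstream. TWIST1 is a factor of cranial and limb mesenchyme. At its locus 2 of 5 intervals had a peak in a MEF group, against 173103 of all 273256 intervals, and nothing is read from so few.

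At Twist2, 7 of 15 intervals had a peak in all 4 groups, or 46.7%, against 24.7% of all. With the control guide 2 of 13 were closed and 4 opened, or 15.4% and 30.8%, against 38.8% and 40.8%. With the Zfp266 guide these were 4 of 14 and 4, against 39.2% and 40.0%. Its strongest in MEFs, in an intron at 15.1 kb, had 4.94 and 5.15 in MEFs and 4.40 and 4.19 in reprogramming. The intron at 37.3 kb rose from 2.21 and 2.51 to 4.51 and 4.58. The intron at 43.5 kb, at 3.37 and 3.03 in MEFs, was lost, and a downstream peak at 53.8 kb, at 3.05 and 3.30, and an intron peak at 25.6 kb, at 2.24 and 2.38, were gained.

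Prrx1 had a few strong reprogramming peaks and many MEF peaks. With the control guide 14 of its 22 intervals were closed and 6 opened, or 63.6% and 27.3%, against 38.8% and 40.8% of all intervals. With the Zfp266 guide 11 of 20 were closed and 6 opened, or 55.0% and 30.0%, against 39.2% and 40.0%. Of the 22, 11 were MEF-only, against 27.5% of all intervals, and 1 was reprogramming-only, against 27.4%. The MEF-only peaks lay on both sides of the gene and in it, with 3.86 and 3.88 at 82.2 kb, 3.66 and 3.55 at 74.3 kb, 3.47 and 3.43 at 61.0 kb, and 3.40 and 3.33 at 38.6 kb. The reprogramming-only peak, in an exon at the far end of the gene, had 3.25 and 3.01. A promoter interval of Prrx1 at an internal start, at 23.9 kb, had a peak in MEF control only, at 1.51.

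The Prrx1 peaks that rose were already present in MEFs. The upstream interval at 13.6 kb went from 2.46 and 2.51 to 5.79 and 6.01, and the intron at 40.3 kb from 2.66 and 2.71 to 5.63 and 6.55. The introns at 21.3 kb and 5.4 kb went from 1.98 and 1.57 in MEF control to 4.22 and 3.62 in reprogramming control, and the latter also covers a start of the predicted gene Gm37644. The largest rise of a kept peak at the 7 loci was 1.45 on the centred log2 scale with the control guide and 1.48 with the Zfp266 guide. At Prrx1, 6 of the 7 intervals with peaks in all 4 groups were distal, and 5 of these were stronger in both reprogramming comparisons, against 15.3% of all distal intervals with peaks in all 4 groups. Among these 5, the interval in an intron 13.6 kb into the gene (2.03, 1.99, 2.85 and 3.24), was called with the control guide only with the centring.

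The change with reprogramming was then compared between guides. At the 37 intervals with a peak in all 4 groups, the centred log2 ratios of reprogramming over MEF with the control guide and with the Zfp266 guide, which share no library, had a Pearson r of 0.95 and a Spearman rho of 0.93, and 33 of 37 had the same sign. Over all 67584 such intervals r was 0.94 and 88.2% had the same sign. These are descriptions across intervals of the same 4 lists, and intervals are not replicates.

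The Zfp266 guide was next compared with the control guide within each state. In MEFs 12 of 100 member intervals with a peak in either group were closed with the Zfp266 guide, against 7.63% of all, and 6 were opened, against 5.86%. Limited to peaks with −log10 q of at least 5, 3 of 68 were closed, or 4.41%, against 5.79% of all. Without that limit, all 18 were peaks present in 1 list and missing from the other, and no peak kept with both guides changed 1.5-fold. The lost peaks had folds of 1.43 to 2.12 and the gained peaks of 1.62 to 2.13, while the median fold of the kept peaks was 2.64. Among the 82 kept peaks the centred KO over control ratio ran from 0.859 to 1.41, with a median change in either direction of 1.05-fold, against 1.06-fold over all intervals.

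In reprogramming 6 of 71 were closed with the Zfp266 guide, against 11.1% of all, and 4 were opened, against 7.69%, again all as lost or gained peaks. With −log10 q of at least 5, 0 of 51 were opened, against 5.42% of all. The lost peaks had folds of 1.85 to 2.18 and the gained peaks of 2.03 to 2.12. The 61 kept peaks had ratios of 0.789 to 1.32, with a median change of 1.06-fold. Of 47 intervals tested in both KO comparisons, 0 were closed in both, against 0.41% of all, and 0 were opened in both, against 0.352%. These comparisons have no test, since each list pools 3 libraries.

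**Figure D4:**
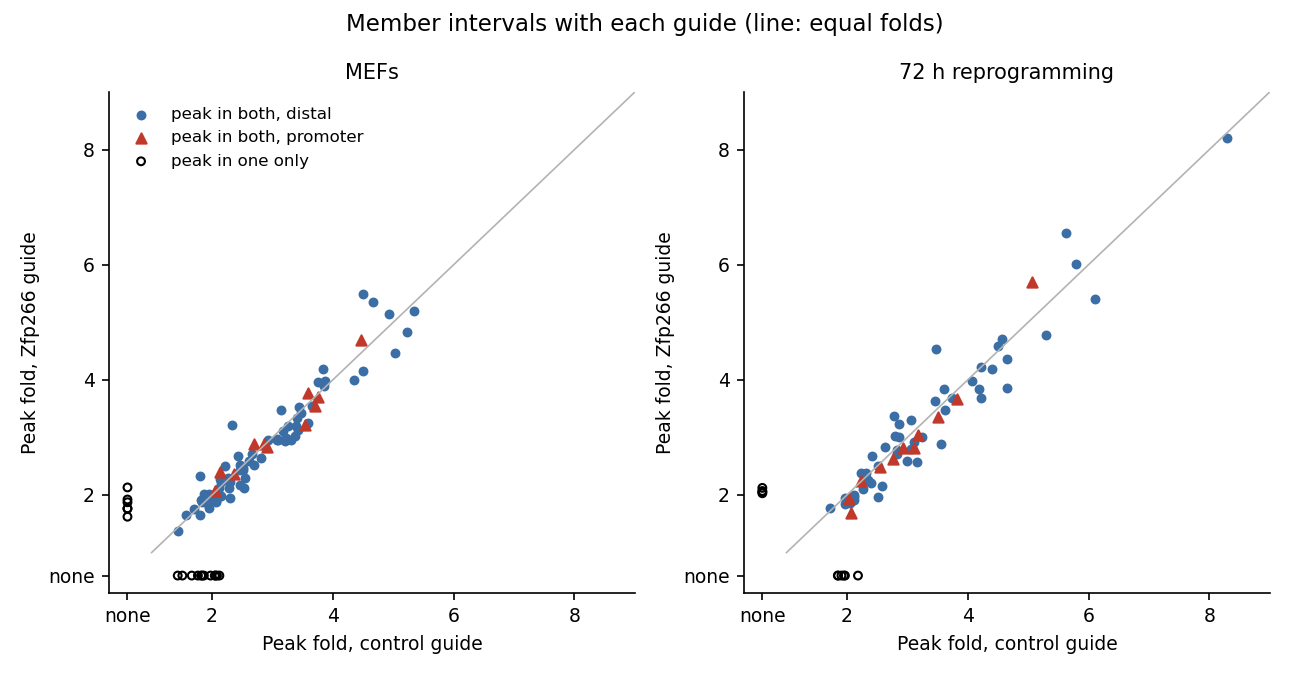
Fold of each member interval with the control guide (horizontal axis) and the Zfp266 guide (vertical axis), in MEFs on the left and at 72 h of reprogramming on the right. Filled points have a peak with both guides, triangles are promoters, and open circles at "none" have a peak with 1 guide only. The kept peaks stay between 0.859 and 1.41 times the line in MEFs, after centring, and the open circles lie at folds of 2.18 or less.

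The tests across libraries that exist for these groups are in the authors' tables of KO against control, which hold the intervals with an adjusted p under 0.05 in DESeq2. None of the 124 member intervals is in the MEF table, which holds 480 intervals or 0.176% of all, and none is in the reprogramming table, which holds 1608 or 0.588%. Values per library exist only for listed intervals, so no library value or error can be given for the members. The smallest KO over control ratio above 1 among the listed intervals was 1.26 in MEFs and 1.19 in reprogramming, and the medians were 2.13 and 2.05. A member that is not listed is not shown to be unchanged.

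The nearest listed intervals lay outside the loci. In MEFs, that nearest to Zeb1 was 231.5 kb away, with mean normalised counts of 96.3 ± 11.4 (SD, n = 3) in control and 149.3 ± 2.25 (SD, n = 3) in KO. In reprogramming, that nearest to Snai1 was 141.3 kb away, with 109.4 ± 9.68 (SD, n = 3) and 210.7 ± 5.91 (SD, n = 3). The other members were 864 kb or more from a listed interval in MEFs and 474 kb or more in reprogramming. Both are given for position only, as chosen by distance from tables already filtered on the comparison.

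Genes that work with or against the members were read at their promoters, from lists chosen for their role. The 5 partners were Tcf3, Tcf4 and Tcf12, the E proteins that pair with TWIST, and Ctbp1 and Ctbp2, the corepressors that ZEB and Snail proteins recruit. All 5 had a promoter peak in all 4 groups, against 71.3% of protein-coding genes. None was called closed or opened, against 10.4% and 8.53% of all protein-coding promoters in reprogramming with the control guide, so these counts are near the background. Tcf4 had 5.65 in MEF control and 5.53 in reprogramming control, and Ctbp1, with 5.18 and 3.42 in the same groups, was called closed with both guides when ratios were not centred. The paralogs Snai3 and Prrx2 kept their peaks too, at 3.29 and 3.71 in MEF control and 2.18 and 2.67 in reprogramming control, and Snai3 was called closed with both guides without the centring.

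Of 10 mesenchymal markers, 0 were closed and 2 were opened with both guides, against 10.4% and 8.53% of all protein-coding promoters with the control guide. These were Acta2, smooth muscle actin, from 3.82 to 5.08 with the control guide, and S100a4, a fibroblast calcium-binding protein, from 2.73 to 4.65. Vim, the mesenchymal filament protein, had 2.97 in MEF control and 2.90 in reprogramming control, and Thy1 had 3.83 and 2.81. Without the centring only S100a4 was called, with the control guide.

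Of 10 epithelial genes that these repressors silence, all had a promoter peak in all 4 groups, against 71.3% of protein-coding genes. With the control guide 2 were opened, Esrp1, an epithelial splicing regulator, from 3.71 to 5.88, and Krt18 from 2.01 to 3.04, and none was closed, against 8.53% opened and 10.4% closed over all protein-coding promoters. With the Zfp266 guide Esrp1 was opened (3.59 to 6.12) and Cldn7, a tight junction claudin, was closed (3.40 to 1.90), while Krt18 had 2.19 in MEF KO and 2.68 in reprogramming KO and was not called. Cdh1, the E-cadherin gene and the best known target of the family, had 4.65 in MEF control and 2.78 in reprogramming control, 4.61 and 2.70 with the Zfp266 guide, and was not called. The closing calls of this list depended on the scale: without the centring 4 of the 10 were closed with the control guide, Cdh1, Cldn7, Krt8 and Crb3, and 3 with the Zfp266 guide, Cdh1, Cldn7 and Krt8. Over all protein-coding promoters, 20% were closed and 6.38% opened with the control guide without the centring, and 20.6% and 6.28% with the Zfp266 guide. Esrp1 was opened with both guides on either scale.

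Of 8 counter-regulators, 5 had a promoter peak and 3 of these were opened with both guides, against 8.53% and 8.21% of all protein-coding promoters. Grhl2, an activator of epithelial genes, rose from 3.15 to 5.83 with the control guide and from 2.95 to 5.12 with the Zfp266 guide. Mir200c and Mir141, microRNAs that target ZEB transcripts, share 1 interval, which rose from 2.24 to 3.06 and from 2.27 to 3.02 and was called opened only with centring, while Grhl2 was opened on either scale. Ovol1 and Ovol2 had 3.29 and 3.09 in MEF control and 2.70 and 3.91 in reprogramming control and were not called, and Mir200a, Mir200b and Mir429 had no promoter peak in any group. No gene of the 5 role lists was called in either KO comparison, where 0.69% and 0.592% of all protein-coding promoters were closed and opened in MEFs and 1.17% and 0.876% in reprogramming.

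Motif content was compared between the members' windows and all windows of the same kind, as a description. Among MEF-only windows, AP-1 stood in 7 of 39 at the members, or 17.9%, against 26.7% of 75229, RUNX in 33.3% against 27.7%, and TEAD in 28.2% against 25.7%. Among reprogramming-only windows, SOX stood in 8 of 21, or 38.1%, against 28.1% of 74990, and the E-box in 5 of 21, or 23.8%, against 19.5%. KLF went the other way, in 3 of 21, or 14.3%, against 17.4%. It stood in 1 of 39 MEF-only windows, or 2.56%, against 6.44%, and in 18.9% of windows with a peak in all 4 groups, against 14.4%. The E-box was found in 1 of 39 MEF-only windows, or 2.56%, against 9.31%. AP-1 was found in 4.76% of the members' reprogramming-only windows and 10.9% of all.

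Windows with a peak in all 4 groups held AP-1 in 18.9% and the E-box in 18.9% at the members, against 17.4% and 18.7% of 67584. OCT stood in 2 of 39 MEF-only windows, or 5.13%, against 1.85% of all, in 2 of 21 reprogramming-only windows, or 9.52%, against 2.76%, and in 1 of 37 windows with a peak in all 4 groups, or 2.70%, against 1.56%. With 21 to 39 windows a kind, 1 window is 2.56 to 4.76 percentage points. Windows that were more than 50% repeat made up 3 of 21 reprogramming-only windows at the members, or 14.3%, against 22.0% of all.

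**Figure D5:**
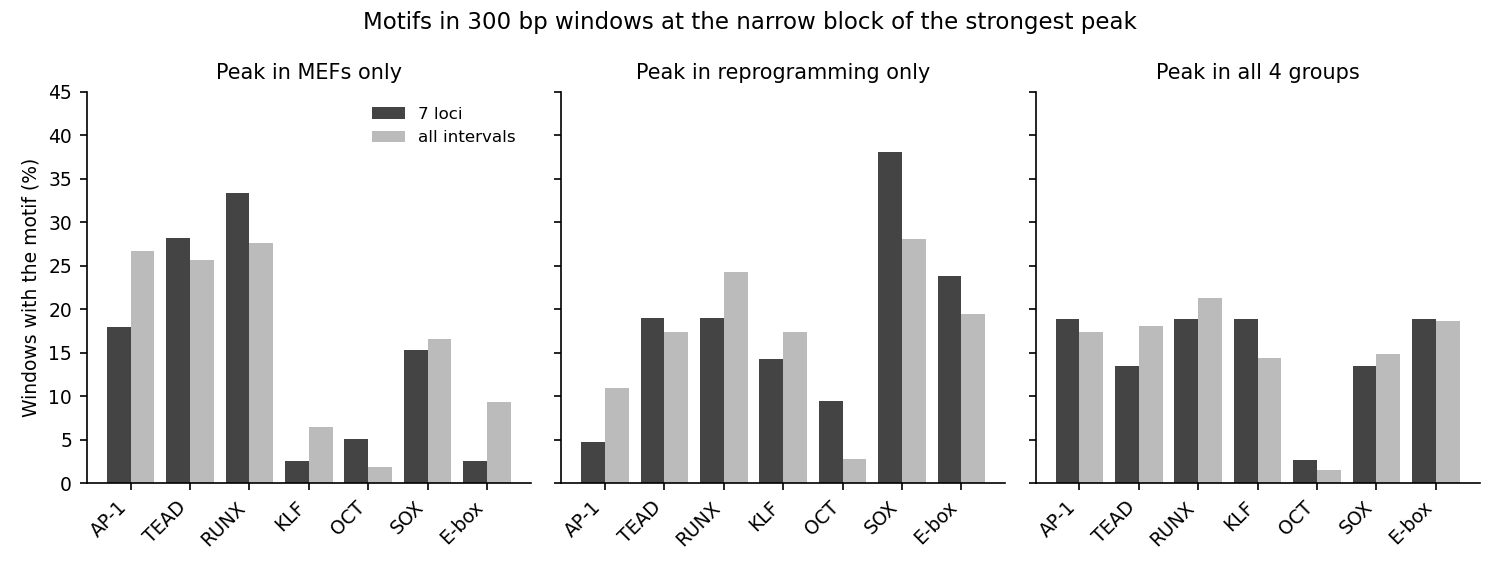
Share of 300 bp windows that hold each of 7 motifs (vertical axis, percent), at the 7 loci (dark bars) and over all intervals (light bars), for intervals with a peak in MEFs only, in reprogramming only and in all 4 groups. SOX is found in 38.1% of the members' reprogramming-only windows and 15.4% of their MEF-only windows, and the order is the same over all intervals, at 28.1% and 16.6%.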

How the data were processed

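Per the study's methods and the submitters' processing notes, the authors trimmed reads with Cutadapt, aligned them with BWA to GRCm38.p6, filtered out duplicates, blacklisted regions, mitochondrial reads and bad pairs, and used MACS2 for broad peaks at a false discovery rate of 0.1. The deposited peak lists, 1 per group with its 3 libraries merged, hold a fold (a linear ratio of pileup to local background) and −log10 q for each peak. The deposited tables of KO against control hold raw read counts and normalised counts (a signal, counts scaled by the authors' size factors) for intervals with an adjusted p under 0.05 in the authors' DESeq2 test, with the authors' fold changes and p-values, which were not used. As they hold only those intervals, no model was refitted, and no count is known for a member.

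Here, peaks of the 4 lists were merged where they overlapped or touched, which gave 273256 intervals that include all 480 and 1608 listed ones. A group's value is the highest fold of its peaks in the interval. Of 661623 peaks, 0 ran past the end of a reference chromosome. Locations came from GENCODE M21, by an interval's midpoint, with intervals within 1000 bp of any annotated start of the gene taken as promoters. Names follow a fixed rule: all members with their promoter intervals, up to 3 further intervals per member by fold, up to 3 each closed and opened with both guides, and related genes by list. Beyond it, intervals at Zeb1 (7.0 kb upstream and 99.0 kb), Zeb2 (12.9 kb upstream, 138.0 and 140.0 kb, and the one at 115.6 kb) and Prrx1 (5.4, 13.6, 38.6 kb and the exon) were chosen after their values were seen. Motifs were searched on both strands of 300 bp windows around the longest narrow block of the strongest peak. The members, lists and rules were chosen with earlier results of these data known. Nothing says that the 3 libraries of a group came from separate animals. Python 3.11.15, numpy 2.4.6, pandas 2.3.3 and matplotlib 3.10.9 were used.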

Additional observations from a re-analysis of the deposited data

Results flagged for a closer look

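An interval in an exon of Zeb2, 115.6 kb into the gene (chr2:45001613-45001964), was called in opposite directions by the Zfp266 guide. In MEFs it had a peak with the Zfp266 guide only, at a fold of 1.87, and in reprogramming with the control guide only, at 2.18. It was the only 1 of 47 intervals tested in both KO comparisons that did so, and 489 of 80691 intervals over the genome (0.61%) did. The difference was not tested, since each value comes from pooled libraries, and both folds lie below the median of the peaks at these loci.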

How the results depend on the processing

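The promoter peaks of all 7 genes were present in all 4 groups also when promoters were narrowed to 250 bp or peaks limited to those with −log10 q of at least 5, and a window of 100 kb still held 0 listed intervals in both tables. The closed and opened shares of both reprogramming comparisons stayed within 1.5 times their values under every alternative (a fold of 2, −log10 q of at least 5, length-weighted folds, no centring, windows of 10 and 50 kb, and 50% reciprocal overlap). The KO shares moved. In MEFs, the closed share was 4.41% (3 of 68, against 5.79% of all intervals) instead of 12% with peaks of −log10 q of at least 5, and with 50% reciprocal overlap, under which shifted peaks count as lost and gained, 19% were closed and 13% opened, against 12.7% and 10.9% of all. In reprogramming, 0 of 51 were opened with −log10 q of at least 5, against 5.42% of all, and with reciprocal overlap 12.7% were closed and 9.86% opened, against 17.9% and 14.5% of all. The length under peaks in reprogramming, added after the data were seen, was 53.2% to 61.1% of that in MEFs over windows of 10 to 50 kb and the limit on q. No paired analysis was possible because each peak list pools the 3 libraries of a group and no member interval is in the tables with values per library, so no library could be left out either and no block could be fitted. Pooled peaks give no spread between libraries, and a peak near the threshold cannot be told from none.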
